A study of Mus musculus with 8 samples.

Results

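The mural genes are 10 genes that smooth muscle cells and pericytes use, chosen by symbol from the 48709 genes of a count table of mouse lung tumors. They fall into 5 contractile genes (*Acta2*, *Tagln*, *Myh11*, *Cnn1* and *Des*), 4 pericyte genes (*Pdgfrb*, *Rgs5*, *Cspg4* and *Notch3*) and the matrix gene *Postn*. The rule uses symbols alone and no measured value, but the genes were chosen with earlier results of these data known. All 10 genes had enough counts to be tested. The study asked what loss of *Setd2*, which encodes the enzyme that trimethylates lysine 36 of histone H3, does to lung tumors that Cre recombinase starts in mice. RNA was sequenced from 8 tumors, 4 in each of the groups *K-Ctrl* and *K-Setd2KO*. Mice of both groups were of the Cre-inducible *K* tumor model on a mixed B6J/129S4vJae background, and a lentivirus given into the airway (LentiCRISPRv2Cre) delivered Cre, Cas9 and a guide RNA. The guide was directed at *GFP* in *K-Ctrl* and at *Setd2* in *K-Setd2KO*. Only cells that took up the virus carry Cre and Cas9, and no value here shows whether mural cells did. Tumors were started in mice at most 20 weeks old, a limit given for the mouse models as a whole, and the age of these mice at harvest and the time since infection were not given in the sources used here.

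Smooth muscle cells wrap airways and larger vessels and contract through a dedicated set of actin and myosin proteins. Pericytes sit on the capillary wall inside its basement membrane, are recruited by platelet-derived growth factor from endothelial cells, and are counted together with vascular smooth muscle as mural cells. In tumors, pericytes and activated fibroblasts form much of the supporting stroma around the vessels.

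Total counts ran from 5806599 to 21290402 per tumor, a 3.67-fold range, and the ranges of the groups overlapped. A limit of 3 counts lay between 0.141 and 0.517 CPM, depending on the tumor, where CPM are counts scaled to a common library size after TMM correction. *Setd2* mRNA itself averaged 140 ± 8.81 CPM in the controls and 136 ± 15.5 CPM under the *Setd2* guide (SD, n = 4 each, edgeR adjusted p 0.824), and its level did not separate the labelled groups. By expression of sex-linked genes, 1 of 4 *K-Ctrl* and 3 of 4 *K-Setd2KO* tumors were female.

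*Rgs5* rose and *Postn* fell in *K-Setd2KO*, and no other mural gene passed the test. The remaining 8 genes all had fold changes below 0, from −0.24 for *Acta2* to −2.12 for *Cnn1* on the log2 scale, with adjusted p values from 0.0868 to 0.772. In the edgeR quasi-likelihood fit over all 14929 tested genes, 1 mural gene was called higher and 1 lower at an adjusted p of 0.05. Over all tested genes, 4.97% were called higher and 7.74% lower. Before adjustment 7 of the 10 had p under 0.05, against 29.9% of all tested genes, and for 6 of them the direction was lower, against 16.3%. Below 0 stood 9 of the 10, against 47.3% of all genes, and the median log2 fold change of the 10 was −0.96 against 0.03 for all. limma voom called the same 2 mural genes, with 11.8% of all genes called, and DESeq2 called 6 of the 10, with 17.2% of all its genes called. Without the filter on low counts edgeR called none of the 10 (6 had an unadjusted p under 0.05), while 5.71% of 28425 genes were called. In bulk tumors, fewer cells of a type and less RNA per cell cannot be told apart.

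**Figure D1:**
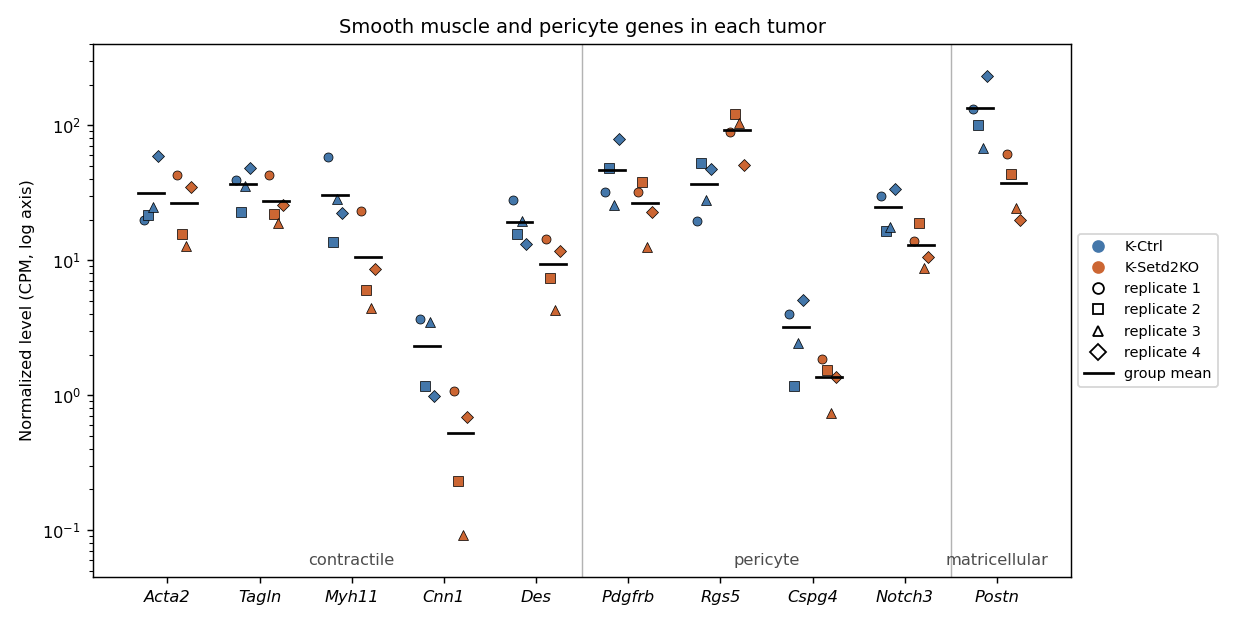
Level of each mural gene in each tumor, in CPM on a log axis, with *K-Ctrl* in blue, *K-Setd2KO* in orange, a marker shape per replicate number and a black bar at each group mean. The *Postn* values of the groups do not overlap, the highest *K-Setd2KO* tumor being at 60.9 and the lowest *K-Ctrl* tumor at 68.0, while the *Rgs5* values meet at 50.8 and 52.4.

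Levels of different genes were compared only after division by exon length. In *K-Ctrl* the order, in CPM per kilobase, was *Tagln* at 23.0 ± 6.71, *Acta2* at 17.6 ± 10.4, *Postn* at 15.4 ± 8.21, *Pdgfrb* at 8.47 ± 4.39 and *Rgs5* at 8.09 ± 3.46 (SD, n = 4). Below these came *Des* at 5.08 ± 1.73, *Myh11* at 4.61 ± 2.90, *Notch3* at 3.05 ± 1.09, *Cnn1* at 0.983 ± 0.611 and *Cspg4* at 0.395 ± 0.214 CPM per kilobase. Only the step from *Notch3* down to *Cnn1* was larger than the larger SD of the 2 neighbours. In *K-Setd2KO* the top place was taken by *Rgs5* at 20.2 ± 6.65 CPM per kilobase, followed by *Tagln* at 17.2 ± 6.79 and *Acta2* at 14.9 ± 8.22 (SD, n = 4), and these 3 did not differ beyond their spread. *Postn*, in place 5 here against place 3 in the controls, was at 4.28 ± 2.16 CPM per kilobase, next to *Pdgfrb* at 4.82 ± 2.05. The steps larger than the neighbours' SD were 2 in this group, from *Acta2* to *Pdgfrb* and from *Myh11* to *Cnn1*.

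*Acta2* (ENSMUSG00000035783.8, GRCm38 chromosome 19, 34241090 to 34255336, minus strand) encodes smooth muscle alpha-actin, which activated fibroblasts also make. Its levels were 19.8, 21.8, 24.9 and 59.1 CPM in *K-Ctrl* replicates 1 to 4 and 42.7, 15.6, 12.7 and 34.9 CPM in *K-Setd2KO* replicates 1 to 4. The groups overlapped throughout, with *K-Ctrl* replicate 4 far above its group and *K-Setd2KO* replicate 1 above 3 of the control tumors. *Acta2* had a log2 fold change of −0.24 (SE 0.477, edgeR adjusted p 0.772, two-sided exact permutation p 0.714). Without *K-Ctrl* replicate 4 it was 0.26.

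*Tagln* (ENSMUSG00000032085.4, chromosome 9, 45929628 to 45936058, minus strand) encodes transgelin, an actin-binding protein of smooth muscle. It overlaps *Pcsk7* on the opposite strand, and whether reads were counted by strand was not given in the sources used here. *Tagln* was at 39.2, 22.7, 35.6 and 48.4 CPM in *K-Ctrl* and at 42.9, 21.9, 18.8 and 25.7 CPM in *K-Setd2KO*. As for *Acta2*, the tumors of the groups were interleaved, and the log2 fold change of −0.41 (SE 0.299, edgeR adjusted p 0.392) was within the spread between tumors.

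The remaining 3 contractile genes mark more mature smooth muscle. *Myh11* (ENSMUSG00000018830.8, chromosome 16, 14194527 to 14291408, minus strand), the smooth muscle myosin heavy chain, was at 58.0, 13.7, 28.5 and 22.2 CPM in *K-Ctrl* and at 23.3, 6.04, 4.43 and 8.56 CPM in *K-Setd2KO*. All but 1 of the *K-Setd2KO* tumors lay below every control tumor, the exception being replicate 1. The group means were 30.6 ± 19.2 and 10.6 ± 8.66 CPM (SD, n = 4 each), a log2 fold change of −1.51 (SE 0.592, edgeR p 0.0310, adjusted p 0.126, exact permutation p 0.0857). Without *K-Setd2KO* replicate 1 the log2 fold change of *Myh11* was −2.29 with an edgeR adjusted p of 0.0342, and without *K-Ctrl* replicate 1 it was −1.01 with 0.306.

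*Cnn1* (ENSMUSG00000001349.4, chromosome 9, 22099281 to 22109630, plus strand) encodes calponin, which binds actin and restrains myosin activity. It had 60, 14, 75 and 11 counts in *K-Ctrl* and 21, 3, 1 and 4 counts in *K-Setd2KO*, which is 3.69, 1.18, 3.46 and 0.982 CPM against 1.08, 0.229, 0.0923 and 0.685 CPM. At this depth 2 of the *K-Setd2KO* tumors were at or under 3 counts, and *K-Setd2KO* replicate 1 again overlapped the controls. The log2 fold change of *Cnn1* was −2.12 (SE 0.733, edgeR p 0.0171, adjusted p 0.0876, exact permutation p 0.0571). The fitted value of *Cnn1* moved to −2.96 (edgeR adjusted p 0.0602) when *K-Setd2KO* replicate 1 was left out.

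*Des* (ENSMUSG00000026208.9, chromosome 1, 75360329 to 75368579, plus strand) encodes desmin, the intermediate filament of muscle cells, and overlaps the gene *Gm15179* on the opposite strand. Its CPM were 27.9, 15.5, 19.7 and 13.1 in *K-Ctrl* and 14.3, 7.42, 4.25 and 11.6 in *K-Setd2KO*. The pattern over tumors was that of *Myh11*, with replicate 1 the one *K-Setd2KO* tumor above a control. Mean levels were 19.1 ± 6.48 and 9.40 ± 4.45 CPM (SD, n = 4 each), and the log2 fold change was −1.02 (SE 0.380, edgeR p 0.0242, adjusted p 0.108, exact permutation p 0.0571).

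Summed over the 5 contractile genes, levels ran from 74.9 to 149 CPM in *K-Ctrl* and from 40.3 to 124 CPM in *K-Setd2KO*. None of the 5 was called by edgeR, and 3 had an unadjusted p under 0.05. Of all tested genes, 12.7% were called in either direction and 29.9% had an unadjusted p under 0.05. The median log2 fold change of the 5 contractile genes was −1.02. The ratio of *Myh11* to *Acta2* CPM was 2.93, 0.629, 1.14 and 0.376 in *K-Ctrl*, against 0.546, 0.387, 0.348 and 0.245 in *K-Setd2KO*. The groups overlapped through *K-Ctrl* replicate 4, which had the highest *Acta2* level and the third *Myh11* level of its group.

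Smooth muscle genes are classically controlled through CArG boxes, sites bound by serum response factor. To show such a stretch, the 150 bases before the RefSeq start of *Acta2* (GRCm38.p6, chr19:34255374-34255523, minus strand) are given, with capitals for matches to a CArG box in which 1 of the inner letters is G or C, at 84 to 75 and at 34 to 25 bases before the start.
*Acta2*: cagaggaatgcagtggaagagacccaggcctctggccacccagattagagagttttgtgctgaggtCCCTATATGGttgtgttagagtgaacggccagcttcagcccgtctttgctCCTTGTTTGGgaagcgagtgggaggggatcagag
RefSeq windows were found for 7 of the 10 mural genes, all except *Tagln*, *Myh11* and *Pdgfrb*. Of all 32851 windows, 7.24% held a CArG box with 1 inner G or C within 250 bases before the start, on either strand, and 1.47% held the strict form with only A or T inside. Of the 7 genes, only *Acta2* had a match of the first kind and none had the strict form.

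A list of other smooth muscle genes, most of them of the contractile apparatus and some not (*Hhip*, *Itga8*, *Aoc3* and *Pcp4l1*), held 22, of which 18 had enough counts, and gave a median log2 fold change of −0.77. None was called higher and 5 were called lower, while 4 of the 18 stood above 0, the highest at 1.33. The summed level of the list ran the other way from its median. It averaged 1864.5 CPM in *K-Ctrl* (1597 to 2199) and 2429 CPM in *K-Setd2KO* (1820 to 3319), and the ranges overlapped. *Hhip*, which encodes a hedgehog-binding protein made by smooth muscle and other mesenchyme, fell from 12.0 ± 4.92 to 2.24 ± 1.10 CPM (mean ± SD of 4 tumors, log2 fold change −2.44, edgeR adjusted p 0.0117). *Itga8*, an integrin subunit of smooth muscle and fibroblasts, fell from 84.7 ± 60.9 to 10.8 ± 6.37 CPM (7.98-fold lower, edgeR adjusted p 0.0203). Also called were *Synpo2*, which encodes an actin-binding protein, and *Ppp1r14a*, which encodes an inhibitor of myosin phosphatase, named only because so few were called. The call of *Hhip* was kept under all 16 alternative settings and that of *Itga8* under 12. *Actg2*, the enteric smooth muscle actin, was at 1.39 ± 0.899 and 1.03 ± 0.611 CPM with a log2 fold change of −0.44 (edgeR adjusted p 0.686).

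Of 8 regulators of smooth muscle transcription 7 were tested and 1 was called, and their median was −0.27 on the log2 scale. *Mef2c*, a transcription factor that acts in muscle, endothelium and leukocytes alike, fell from 28.1 ± 8.96 to 11.7 ± 2.55 CPM (mean ± SD of 4 tumors, log2 fold change −1.25, edgeR adjusted p 0.0167), a call kept under 15 of 16 settings and lost without *K-Setd2KO* replicate 3. *Myocd*, the smooth muscle coactivator of serum response factor, was at 1.15 ± 0.720 and 0.557 ± 0.422 CPM (log2 fold change −0.88, edgeR adjusted p 0.447). *Srf* itself was at 34.4 ± 4.00 and 28.5 ± 5.80 CPM (log2 fold change −0.27, edgeR adjusted p 0.311).

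Actins, myosins, calponins and transgelins also have widely expressed relatives that are not confined to muscle, and all 9 listed here were tested. Their median log2 fold change was −0.23, and 2 were called lower. *Vim*, the intermediate filament of mesenchymal cells and leukocytes, fell from 633 ± 218 to 161 ± 56.8 CPM (log2 fold change −1.97, edgeR adjusted p 0.0102). *Myh10*, a nonmuscle myosin heavy chain, fell from 139 ± 71.7 to 41.0 ± 12.5 CPM (log2 fold change −1.75, edgeR adjusted p 0.0164), a call kept under 14 of 16 settings and lost without *K-Setd2KO* replicate 3 and with a sex term.

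**Figure D2:**
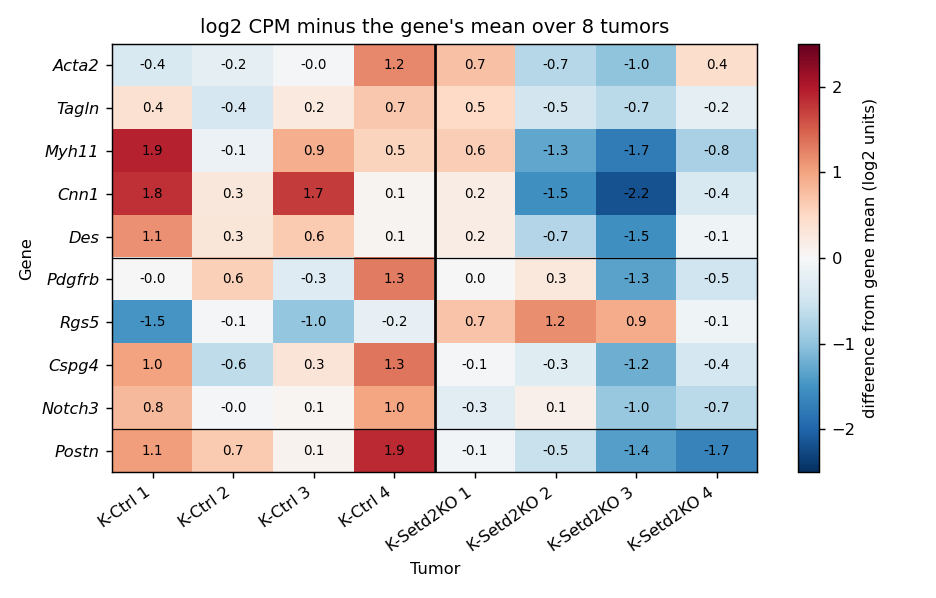
log2 CPM of each mural gene in each tumor minus that gene's mean over the 8 tumors, with red above and blue below the mean and the value in log2 units in each cell. *K-Setd2KO* replicate 3 is the lowest of the 8 tumors for 8 of the 10 genes, and *Rgs5* is below its mean in all 4 *K-Ctrl* and above it in 3 *K-Setd2KO* tumors.

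Among the pericyte genes, *Pdgfrb* (ENSMUSG00000024620.11, chromosome 18, 61045150 to 61085061, plus strand) encodes the receptor through which pericytes are recruited, and fibroblasts also carry it. Its CPM were 31.9, 48.6, 25.7 and 79.4 in the controls and 32.2, 38.2, 12.6 and 22.6 in *K-Setd2KO*. Tumors of the groups were interleaved, with *K-Ctrl* replicate 4 the highest and *K-Setd2KO* replicate 3 the lowest. The fitted difference was −0.81 on the log2 scale (SE 0.418, edgeR adjusted p 0.232, exact permutation p 0.2).

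*Rgs5* (ENSMUSG00000026678.10, chromosome 1, 169655501 to 169695813, plus strand) encodes a regulator that shortens signalling from G protein-coupled receptors and is among the most used pericyte markers. It was at 19.4, 52.4, 27.7 and 47.5 CPM in *K-Ctrl* and at 89.7, 122, 104 and 50.8 CPM in *K-Setd2KO*. The first 3 *K-Setd2KO* tumors stood well above every control, and replicate 4, the shallowest library, lay just under *K-Ctrl* replicate 2. *Rgs5* rose from 36.8 ± 15.7 to 91.6 ± 30.2 CPM (SD, n = 4 each), 2.501-fold, with a log2 fold change of 1.32 (SE 0.357, edgeR p 0.00482, adjusted p 0.0430). The two-sided exact permutation p was 0.0571, where the smallest possible value is 0.0286.

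This call rested on several single tumors. The edgeR adjusted p of *Rgs5* was 0.0830 without *K-Ctrl* replicate 1, 0.118 without *K-Ctrl* replicate 3, and 0.0734, 0.0790 and 0.0969 without *K-Setd2KO* replicates 1, 2 and 3. The log2 fold change stayed between 1.11 and 1.54 in all 8 such fits. With sex as a term it was 1.23 with an adjusted p of 0.0933. Among the female tumors, 1 against 3, the log2 ratio of mean CPM was 0.74, and among the males, 3 against 1, it was 1.72.

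*Cspg4* (ENSMUSG00000032911.5, chromosome 9, 56865104 to 56899870, plus strand), which encodes the NG2 proteoglycan of the pericyte surface, was at 4.00, 1.18, 2.45 and 5.09 CPM in *K-Ctrl* and at 1.85, 1.53, 0.738 and 1.37 CPM in *K-Setd2KO*. *K-Ctrl* replicate 2 lay among the *K-Setd2KO* tumors and the other controls above them. The log2 fold change was −1.19 (SE 0.499, edgeR p 0.0400, adjusted p 0.147, exact permutation p 0.114), on 8 to 65 counts per tumor.

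*Notch3* (ENSMUSG00000038146.7, chromosome 17, 32120820 to 32166880, minus strand) encodes the Notch receptor of arterial smooth muscle and pericytes and overlaps *Gm17276* on the opposite strand. Its CPM were 30.1, 16.6, 17.7 and 33.9 in *K-Ctrl* and 13.97, 18.8, 8.77 and 10.6 in *K-Setd2KO*. *K-Setd2KO* replicate 2 was the one tumor of its group above any control. Mean levels were 24.6 ± 8.74 and 13.0 ± 4.41 CPM (SD, n = 4 each), a log2 fold change of −0.91 (SE 0.312, edgeR p 0.0168, adjusted p 0.0868, exact permutation p 0.0857). Without *K-Setd2KO* replicate 2 the log2 fold change of *Notch3* was −1.14 and the edgeR adjusted p 0.0460.

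*Rgs5* was also set against the other pericyte genes within single tumors. The ratio of *Rgs5* to *Pdgfrb* CPM was 0.608, 1.08, 1.08 and 0.598 in *K-Ctrl* and 2.79, 3.19, 8.28 and 2.25 in *K-Setd2KO*. Every *K-Setd2KO* tumor was above every control. The ratio of *Rgs5* to *Notch3* CPM was 0.644, 3.17, 1.57 and 1.40 against 6.42, 6.48, 11.9 and 4.79, which did not overlap either. The ratio of *Rgs5* to *Cspg4* CPM was 4.85, 44.6, 11.3 and 9.33 in *K-Ctrl* and 48.5, 79.8, 141 and 37.1 in *K-Setd2KO*, on few *Cspg4* counts. Here the groups overlapped, with *K-Ctrl* replicate 2 above *K-Setd2KO* replicate 4. Against *Pecam1*, the adhesion molecule of endothelial cells, the ratio of *Rgs5* was 0.0365, 0.343, 0.109 and 0.239 in *K-Ctrl* and 0.512, 1.04, 1.40 and 0.771 in *K-Setd2KO*, without overlap. The ratio of *Pdgfrb* to *Pecam1* CPM ran from 0.0601 to 0.399 in *K-Ctrl* and from 0.169 to 0.343 in *K-Setd2KO*, so the groups lay over each other. These ratios were chosen after the values were seen and are given as descriptions.

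**Figure D3:**
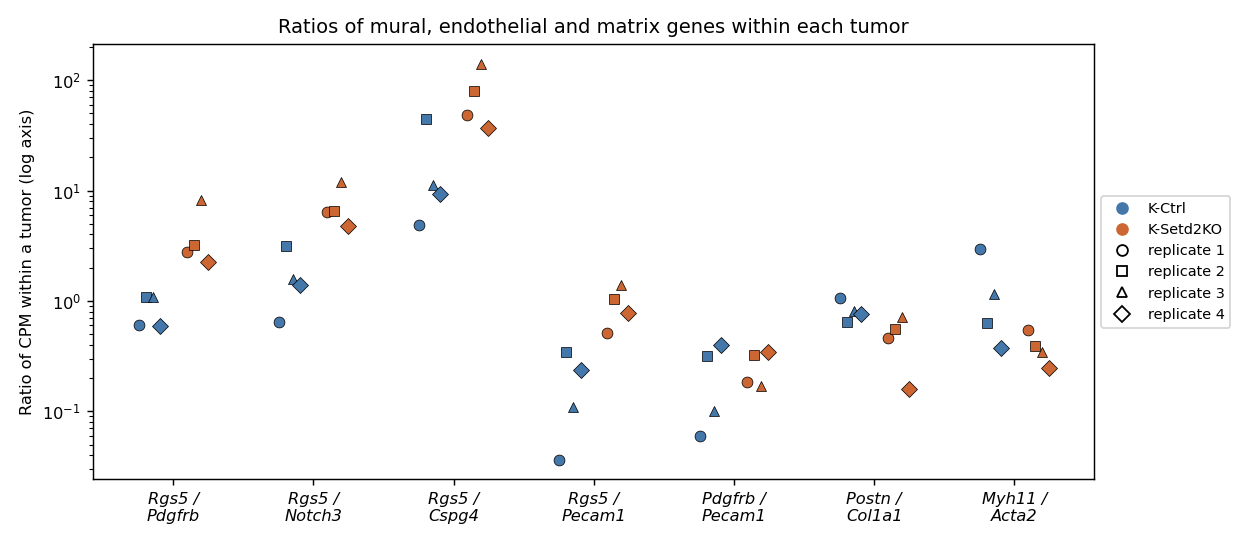
Ratios of CPM of gene pairs within each tumor on a log axis, with *K-Ctrl* in blue, *K-Setd2KO* in orange and a marker shape per replicate number. The ratios of *Rgs5* to *Pdgfrb*, *Notch3* and *Pecam1* separate the groups, while *Rgs5* to *Cspg4*, *Pdgfrb* to *Pecam1*, *Postn* to *Col1a1* and *Myh11* to *Acta2* overlap.

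As *Rgs5* and *Postn* are the called mural genes, the 150 bases before their RefSeq starts (GRCm38.p6) are shown, *Rgs5* at chr1:169655351-169655500 and *Postn* at chr3:54360957-54361106, both on the plus strand. *Postn* has a further RefSeq start, and the 150 bases before it (chr3:54359117-54359266, plus strand) hold neither of the words marked here. Capitals mark TATAAA or TATATA, the letters of a TATA box.
*Rgs5*: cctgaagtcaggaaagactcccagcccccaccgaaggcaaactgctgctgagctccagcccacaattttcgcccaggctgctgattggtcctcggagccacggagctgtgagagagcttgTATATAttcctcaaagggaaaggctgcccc
*Postn*: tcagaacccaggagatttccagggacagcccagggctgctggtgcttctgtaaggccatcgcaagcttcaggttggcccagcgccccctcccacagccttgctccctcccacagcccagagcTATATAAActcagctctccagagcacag
In *Rgs5* the match lies 30 to 25 bases before the start, and in the *Postn* window shown a TATATA at 28 to 23 and a TATAAA at 26 to 21 overlap. Of all 32851 windows 3.67% held either word within 50 bases before the start on the gene's strand, and among the 7 mural genes with a window these were the only 2. GTGGGAA or its reverse complement TTCCCAC, a core of the sites bound by the Notch effector RBPJ, was in 5.42% of all windows and in none of these 7.

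The list of other pericyte genes held 19, of which 17 were tested, with a median log2 fold change of −1.04. It gave 1 call higher and 4 lower. *Steap4*, a metalloreductase that many cell types besides pericytes can make, rose from 13.6 ± 6.04 to 162 ± 85.9 CPM (SD, n = 4 each), 11.8-fold (log2 fold change 3.56, SE 0.486, edgeR adjusted p 0.00643). Its 4 *K-Setd2KO* values, 96.2, 94.3, 275 and 182 CPM, were all above the control values of 14.8, 14.7, 19.7 and 5.27 CPM.

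Lower were the nucleotide-sugar receptor gene *P2ry14*, from 33.5 ± 8.58 to 10.3 ± 1.61 CPM (log2 fold change −1.70, edgeR adjusted p 0.00560), and both subunits of soluble guanylate cyclase, the nitric oxide receptor through which mural cells relax. *Gucy1a1* fell from 58.2 ± 20.6 to 19.8 ± 6.67 CPM (log2 fold change −1.55, edgeR adjusted p 0.0134) and *Gucy1b1* from 43.4 ± 13.3 to 15.9 ± 4.44 CPM (log2 fold change −1.45, edgeR adjusted p 0.0116). The other one called was *Ednra*, the endothelin receptor gene, named here because so few were called. *Steap4*, *P2ry14*, *Gucy1a1* and *Gucy1b1* were called under all 16 alternative settings.

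*Postn* (ENSMUSG00000027750.16, chromosome 3, 54361109 to 54391037, plus strand) encodes periostin, a matricellular protein that fibroblasts and smooth muscle lay down in injured and tumor stroma. It was at 132, 101, 68.0 and 233 CPM in *K-Ctrl* and at 60.9, 43.7, 24.5 and 19.9 CPM in *K-Setd2KO*. Every *K-Setd2KO* tumor lay below every control, which held for no other mural gene and for 20.3% of all tested genes in either direction. *Postn* fell from 134 ± 71.5 to 37.2 ± 18.8 CPM (SD, n = 4 each), 3.56-fold lower, with a log2 fold change of −1.83 (SE 0.451, edgeR p 0.00286, adjusted p 0.0325). The exact permutation p was 0.0286, the smallest this design allows.

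Leaving out 1 tumor ended this call in 4 of 8 cases. The edgeR adjusted p of *Postn* was 0.0701 and 0.0538 without *K-Ctrl* replicates 1 and 4, and 0.0840 and 0.0657 without *K-Setd2KO* replicates 3 and 4. Over all 8 such fits the log2 fold change lay between −2.18 and −1.42. With sex as a term it was −1.91 with an adjusted p of 0.0897. The log2 ratio of mean *Postn* CPM was −1.29 among the female and −2.56 among the male tumors.

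Other fibrous matrix genes, all 18 of which were tested, had a median log2 fold change of −0.64, and 1 was called. *Fbln1*, which encodes the matrix glycoprotein fibulin-1, fell from 17.2 ± 9.06 to 3.28 ± 1.56 CPM (log2 fold change −2.42, edgeR adjusted p 0.0135). *Col1a1*, a chain of type I collagen, was at 169 ± 98.2 and 92.2 ± 44.95 CPM (log2 fold change −0.87, edgeR adjusted p 0.260). The ratio of *Postn* to *Col1a1* CPM was 1.07, 0.645, 0.804 and 0.755 in *K-Ctrl* and 0.465, 0.554, 0.713 and 0.160 in *K-Setd2KO*, and *K-Setd2KO* replicate 3 overlapped the controls.

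The 10 genes of the vascular basement membrane had a median log2 fold change of −0.10, with 2 called lower. *Lama4*, the laminin chain of vessels, fell from 44.5 ± 9.14 to 19.1 ± 8.02 CPM (log2 fold change −1.21, edgeR adjusted p 0.0267), a call kept under 12 of 16 settings. *Nid1*, which links laminin to type IV collagen, fell from 76.9 ± 19.0 to 41.7 ± 10.8 CPM (log2 fold change −0.88, edgeR adjusted p 0.0431), a call kept under 8 of 16.

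**Figure D4:**
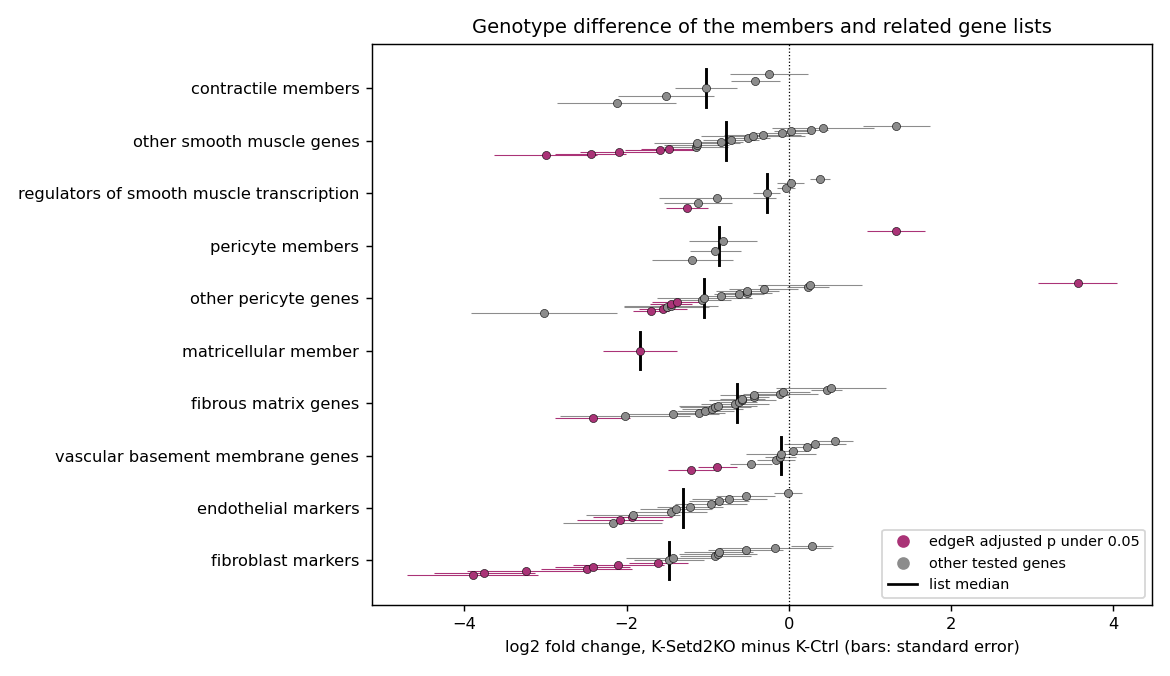
log2 fold change of *K-Setd2KO* against *K-Ctrl* for each tested gene of the 3 mural groups and of the lists of other smooth muscle genes, their regulators, other pericyte genes, fibrous matrix, vascular basement membrane, endothelial and fibroblast genes, with bars for the standard error, purple points for an edgeR adjusted p under 0.05 and black ticks at list medians. *Rgs5* at 1.32 and *Steap4* at 3.56 are the purple points right of 0 among these lists, and the medians of the endothelial and fibroblast lists lie at −1.30 and −1.48.

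Signals that act on mural cells were taken next, beginning with the partners of *Pdgfrb*. *Pdgfb*, the endothelial ligand of the receptor, was at 31.2 ± 8.69 and 23.5 ± 7.15 CPM (mean ± SD of 4 tumors, log2 fold change −0.40, edgeR adjusted p 0.353). Of the 5 ligand and receptor genes of this family, none was called higher and 2 lower, and their median was −0.40 on the log2 scale. *Pdgfd*, a second ligand of the receptor, fell from 10.96 ± 3.47 to 4.74 ± 1.42 CPM (log2 fold change −1.21, edgeR adjusted p 0.0421), a call kept under 7 of 16 settings. *Pdgfra*, the related receptor gene of fibroblasts, fell from 114 ± 41.9 to 37.3 ± 16.8 CPM (log2 fold change −1.61, edgeR adjusted p 0.0236), a call kept under 13 of 16.

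All 13 Notch pathway genes other than *Notch3* were tested, and 1 was called higher and 2 lower. Their median was −0.43 on the log2 scale. *Hes1*, a target gene of Notch receptors in many cell types, rose from 52.5 ± 9.82 to 86.3 ± 11.5 CPM (log2 fold change 0.72, edgeR adjusted p 0.0229), a call kept under 11 of 16 settings. The ligand genes *Dll4* and *Dll1* fell, from 17.5 ± 9.86 to 5.999 ± 2.24 CPM (log2 fold change −1.52, edgeR adjusted p 0.0428) and from 14.7 ± 4.69 to 5.96 ± 2.25 CPM (log2 fold change −1.29, edgeR adjusted p 0.0387), with calls kept under 8 and 7 of 16 settings. *Jag1*, the ligand that endothelial cells and smooth muscle present to *Notch3*, was at 81.7 ± 5.04 and 122 ± 55.3 CPM (log2 fold change 0.58, edgeR adjusted p 0.172).

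The angiopoietin and Tie genes, 4 in all, had a median log2 fold change of −1.65. *Angpt1*, the pericyte-derived ligand that steadies vessels, fell from 34.4 ± 25.4 to 7.06 ± 1.68 CPM (log2 fold change −2.29, edgeR adjusted p 0.0192), a call kept under 12 of 16 settings, and without *K-Ctrl* replicate 1 the log2 fold change was −1.68. Its endothelial receptor gene *Tek* fell from 122 ± 97.5 to 28.6 ± 8.92 CPM (log2 fold change −2.08, edgeR adjusted p 0.0361), a call kept under 7 of 16, with −1.41 and an adjusted p of 0.0630 without *K-Ctrl* replicate 1.

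TGF-beta signalling promotes contractile gene expression and matrix production. Of its 20 genes, 6 were called lower and none higher, with a median log2 fold change of −0.53. *Tgfb2* fell from 24.7 ± 3.47 to 7.57 ± 2.72 CPM (log2 fold change −1.71, edgeR adjusted p 0.00738) and *Tgfb3* from 26.0 ± 5.53 to 13.0 ± 3.24 CPM (log2 fold change −0.9999, edgeR adjusted p 0.0255). *Ltbp4*, which anchors the latent ligand in the matrix, fell from 45.1 ± 26.6 to 8.65 ± 2.60 CPM (log2 fold change −2.37, edgeR adjusted p 0.0112). *Tgfb1* was at 88.0 ± 7.80 and 55.8 ± 18.9 CPM (log2 fold change −0.65, edgeR adjusted p 0.0855). The calls of *Tgfb2* and *Ltbp4* were kept under all 16 settings and that of *Tgfb3* under 13.

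The same tumors were often at the ends of the range. *K-Ctrl* replicate 4 was the highest of the 8 for *Acta2*, *Tagln*, *Pdgfrb*, *Cspg4*, *Notch3* and *Postn*, and *K-Ctrl* replicate 1 for *Myh11*, *Cnn1* and *Des*. *K-Setd2KO* replicate 3 was the lowest for 8 genes, all but *Rgs5* and *Postn*. Within *K-Setd2KO*, replicate 1 held the highest value of 7 of the 10 genes. For *Rgs5* the tumor with the highest *Myh11* level, *K-Ctrl* replicate 1, was the lowest of the 8.

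Sex and genotype were partly joined, and the values within each sex differed. In the female tumors, 1 control against 3, the log2 ratio of mean CPM was 0.51 for *Acta2*, 0.41 for *Tagln*, 0.43 for *Cspg4*, −0.12 for *Myh11* and −0.19 for *Notch3*. The remaining female values were −0.82 for *Cnn1*, −0.48 for *Des* and −0.65 for *Pdgfrb*. In the males, 3 controls against *K-Setd2KO* replicate 3 alone, the same ratios were −1.44, −1.12, −2.38, −3.03, −1.64, −4.88, −2.25 and −1.86 in the same order. *Acta2*, *Tagln* and *Cspg4* had opposite signs in the sexes and the other 7 genes kept 1 sign, and in each sex a single tumor stands for 1 of the groups. With sex as a term edgeR called no mural gene (4 had an unadjusted p under 0.05), against 8.29% of all tested genes.

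Markers of other cell types also differed between the groups. Summed endothelial markers, all 12 tested and 2 called lower, ran from 749 to 2639 CPM in *K-Ctrl* and from 457 to 814 CPM in *K-Setd2KO*. Among them *Cdh5*, the endothelial cadherin, fell from 269 ± 192 to 70.4 ± 26.1 CPM (log2 fold change −1.93, edgeR adjusted p 0.0350), a call kept under 9 of 16 settings, and *Pecam1* was at 284 ± 169 and 108 ± 49.99 CPM (log2 fold change −1.39, edgeR adjusted p 0.0699). Fibroblast markers, of which 7 of 15 were called lower and none higher, summed to 1096 to 2017 CPM and to 566 to 1126 CPM. *Scube2* and *Wnt2*, secreted proteins of lung fibroblasts, had log2 fold changes of −3.75 and −3.89 (edgeR adjusted p 0.00945 and 0.0177), with calls kept under 16 and 14 of 16 settings. Without *K-Ctrl* replicate 1 *Scube2* was at −3.16, and without *K-Setd2KO* replicate 1 *Wnt2* was at −4.56. Counts of *Wnt2* were 107, 27, 91 and 12 in *K-Ctrl* and 8, 2, 0 and 2 in *K-Setd2KO*. All *K-Setd2KO* tumors but replicate 1 were thus under 3 counts. Mesothelial markers, 6 of 7 called lower, summed to 38.1 to 218 CPM against 6.35 to 31.2 CPM. *Gpm6a*, *Msln* and *Upk1b* had log2 fold changes of −3.66, −2.14 and −2.19 (edgeR adjusted p 0.0156, 0.0252 and 0.0318), with calls kept under 15, 11 and 6 of 16 settings. That of *Upk1b* was lost in 7 of 8 fits with a tumor left out, and *Gpm6a* was at −4.28 without *K-Setd2KO* replicate 1. Leukocyte markers were called lower in 8 of 10 cases, with summed levels of 1316 to 2397 CPM against 693 to 909 CPM, and *Ptprc*, the pan-leukocyte surface gene, had a log2 fold change of −2.08 (edgeR adjusted p 0.00560). Epithelial markers were called higher in 3 of 10 cases, among them *Epcam* with a log2 fold change of 0.90 (edgeR adjusted p 0.0177, a call kept under 14 of 16 settings), with summed levels of 30135 to 45619 CPM and of 38296 to 49191 CPM. *Tek* and *Tie1* stand in both the endothelial and the angiopoietin list, *Pdgfra* and 4 matrix genes (*Fbln1*, *Col1a1*, *Col1a2* and *Col3a1*) also among the fibroblast markers. The part of these cell types in the values of the mural genes was not tested. *Rgs5* was higher in the group in which the mean endothelial, fibroblast and mesothelial sums were lower, though the endothelial and fibroblast sums of single tumors overlapped.

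Other muscle was looked for because it shares *Des* and the actins with smooth muscle. Of 9 skeletal muscle markers 1 passed the count filter, *Myh1*, *Myh4* and *Pvalb* were at 0 in all tumors, and the sum was between 0.803 and 4.62 CPM. Of 10 cardiac markers 6 were tested and 1 called, *Actc1*, with mean levels of 2.29 ± 1.49 and 0.141 ± 0.219 CPM (log2 fold change −3.92, edgeR adjusted p 0.0272). Counts of *Actc1* were 57, 12, 79 and 11 in *K-Ctrl* and 2, 0, 5 and 0 in *K-Setd2KO*. All *K-Setd2KO* tumors but replicate 3 were thus under 3 counts. The call of *Actc1* was kept under 11 of 16 settings and lost with a sex term (log2 fold change −3.19, edgeR adjusted p 0.0512) and without *K-Ctrl* replicates 1 or 3 or *K-Setd2KO* replicates 1 or 4, and without *K-Setd2KO* replicate 3 the log2 fold change was −5.33. *Sln* was at 0 in all tumors, and *Nppa*, *Myl7* and *Myl3* did not pass the filter. *Myh6*, the cardiac myosin heavy chain, made up most of the cardiac sum, with means of 146 and 112 CPM (log2 fold change −0.37, edgeR adjusted p 0.673). The cardiac sum was 88.1 to 261 CPM in *K-Ctrl* and 44.0 to 229 CPM in *K-Setd2KO*.

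Genes whose pattern over the 8 tumors was most like that of a mural gene were found by the root-mean-square difference of centred log2 CPM, over all tested genes. Closest to *Pdgfrb* was *Ltbp2*, a matrix protein of the fibrillin family, at 0.168 log2 units, then *Islr* at 0.201, *Sdk2* at 0.240, *Rap1gap2* at 0.257 and *Dbn1* at 0.284, where the median gene was at 0.840. Closest to *Myh11* were *A4galt* at 0.303, *Ctla2b* at 0.318, *Cdr2* at 0.357, *Ablim3* at 0.367 and *Hoxb4* at 0.377, with a median of 1.21. For *Postn* they were the collagen gene *Col6a3* at 0.342, *Synpo2* at 0.414, *Dnajc6* at 0.434, *Adamts5* at 0.444 and *Dchs1* at 0.450, with a median of 1.18. The points of each comparison are the same 8 libraries, and no mural gene was among the 5 nearest of these 3.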

How the data were processed

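The authors deposited unnormalized gene counts of 8 tumors in 1 table with versioned Ensembl identifiers. The submitters' processing notes name STAR 2.5.2b, featureCounts 1.5.0-p1 and GRCm38.p4. The strand setting and annotation release are not given in the sources used here. The design text describes flash-frozen tumors, while the extraction text speaks of cell lines, and the samples are called tumors here. Nothing says whether each tumor came from its own mouse, so p-values measure the spread between these samples. Libraries were made with a stranded poly(A) kit.

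Symbols came from GENCODE M21 (48349 of 48709 identifiers). Genes passing filterByExpr were fitted with edgeR 4.0.16 (R 4.3.3) using TMM factors, a robust quasi-likelihood fit on genotype and Benjamini-Hochberg adjustment over 14929 genes. The standard error is the absolute log2 fold change over the square root of F. Exact permutation tests ran over the 70 assignments of log2 CPM (prior count 2) in SciPy 1.17.1. The code was tested on simulated data. Alternatives were RLE, upper-quartile and total-count scaling, no filter, DESeq2 1.42.0, limma 3.58.1 voom, a sex term, a replicate block and each tumor left out.

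The mural genes and the lists were chosen with earlier results of these data known. Named were the 10 genes, *Setd2*, up to 3 called genes per list and direction by p, and *Actg2*, *Myocd*, *Srf*, *Pdgfb*, *Jag1*, *Tgfb1*, *Pecam1*, *Col1a1*, *Epcam* and *Ptprc*. Promoter windows are RefSeq's. 1 gene that this rule selects is not reported here.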

Additional observations from a re-analysis of the deposited data

Results flagged for a closer look

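Single tumors stood apart from the other 3 of their group, by Dixon's ratio, in 9 of the 110 groups of 4 values examined, where chance gives 5.5. Among the mural genes 1 was flagged. *Acta2* was at 59.1 CPM in *K-Ctrl* replicate 4 against 19.8, 21.8 and 24.9 CPM in the other controls, and the same tumor held *Krt18*, an epithelial keratin, at 341 CPM against 179 to 199.5 CPM. *K-Ctrl* replicate 1 was high for *Gucy1a1* (88.8 CPM, the others 45.7 to 52.0), for *Pdgfra* (176.5 CPM, the others 86.5 to 97.8) and for *Dll4* (32.1 CPM, the others 11.5 to 14.4). *K-Ctrl* replicate 3 was low for *Lama4*, at 30.9 CPM against 48.5 to 50.1 CPM. Among the *K-Setd2KO* tumors, *Mef2c* was high in replicate 2 (15.5 CPM, the others 10.1 to 10.9), *Myh10* was high in replicate 1 (59.7 CPM, the others 33.6 to 36.8) and *Nid1* was low in replicate 3 (25.6 CPM, the others 46.1 to 48.3).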

How the results depend on the processing

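Of the 2 called mural genes, both kept their calls under RLE, upper-quartile and total-count scaling, DESeq2 and limma voom. No mural gene was called without the filter on low counts (0 of 10, *Rgs5* at an adjusted p of 0.0947 and *Postn* at 0.118, with 28425 genes tested) or with a sex term (0 of 10, *Rgs5* at 0.0933 and *Postn* at 0.0897), with 6 and 4 of them at an unadjusted p under 0.05 in edgeR. DESeq2 called 6, adding *Myh11* (adjusted p 0.0331), *Cnn1* (0.0321), *Des* (0.0497) and *Notch3* (0.0398), and it called 17.2% of its 18698 genes. Leaving out each tumor in turn gave 0 to 2 called mural genes. In edgeR 0 were called without *K-Ctrl* replicate 1 (4 with an unadjusted p under 0.05) and without *K-Setd2KO* replicate 3 (5). These fits called 938 and 1011 genes in all. Over all genes, 1897 were called, 3211 by DESeq2, 1237 with the sex term and 763 to 2058 with a tumor left out. *Acta2* changed sign without *K-Ctrl* replicate 4 (log2 fold change 0.26, with a range of −0.58 to 0.26 over the tumors left out) and no other mural gene changed sign under any of the 16 alternatives. With the replicate block, the numbers of the labels as a term, 2 mural genes were called, *Postn* (adjusted p 0.0495) and *Myh11* (0.0257), while *Rgs5* was not (0.0609), and 1341 genes were called in all. Tumors of the same number did not deviate together (r of −0.0742, −0.0299, 0.191 and −0.0232), so the numbers were not read as pairs. Of 36 other named called genes, 14 were called under all 16 alternatives. The median of the basement membrane list changed sign under 2 of them, between −0.24 and 0.02. *Cnn1* and *Cspg4* were limited by depth, with 1 to 75 and 8 to 65 counts per tumor. So were *Wnt2*, with 0 to 107 counts, and *Actc1*, with 0 to 79.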
